A study of Homo sapiens with 4 samples.

Results

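The comparison set EpCAM-positive cells given antagomir-429 against EpCAM-negative cells given a control mimic, and asked whether blocking miR-429 brings the EpCAM-positive cells to the EpCAM-negative state. Members were the 8130 genes, of 19775 genes with a probe set that carries a single gene symbol, whose brightest such probe set had a mean log2 signal over the 4 arrays at or above the 75th percentile of all non-control probe sets, a signal of 265.6. The cells were HCCLM3, a human hepatocellular carcinoma line, sorted magnetically for EpCAM, an epithelial adhesion protein and surface marker of liver tumour-initiating cells. Affymetrix Human U133 Plus 2.0 arrays read the total RNA, with 1 array for each group.

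The EpCAM-negative cells had received 100 nM of a negative-control (NC) microRNA mimic or 100 nM of a miR-429 mimic, a duplex that supplies the microRNA. The EpCAM-positive cells had received 40 µM of an NC antagomir or 40 µM of antagomir-429, an antisense strand that blocks the microRNA. Treatment lasted 4 days in every group. Mimics were carried into the cells by a transfection reagent, whereas the protocol describes the cholesterol-conjugated antagomir as added to serum-free medium. In the main comparison the sorted fraction, the kind of reagent and the way of delivery therefore change together and cannot be told apart. No untreated cells of either fraction were among the 4 samples, and with 1 array a group no difference given here has a replicate check or a test.

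The array labels were compared first with the marker that defines them. EPCAM has 1 probe set, whose signal was 1105.5 with the NC mimic, 3838.0 with the miR-429 mimic, 1235.0 with the NC antagomir and 912.6 with antagomir-429. The EpCAM-positive arrays were not the higher ones for EPCAM mRNA: the antagomir-429 array was the lowest of the 4, with a log2 ratio of -0.28 to the NC mimic array. The names EpCAM-positive and EpCAM-negative are therefore used here as the labels give them, for a sort on surface protein. The simple-epithelium keratin KRT8 had signals from 28364.6 to 33449.2 and its partner KRT18 from 42723.1 to 50498.5, with no gap between the fractions. Albumin (ALB), alpha-fetoprotein (AFP), E-cadherin (CDH1) and glypican-3 (GPC3) lay under the filter, and the AFP signal was between 91.5 and 119.3 on the 4 arrays. None of the 21 measured leukocyte markers was a member, and their summed signals lay between 1002 and 1299. Of the 18 fibroblast and endothelial markers, ACTA2 and COL1A1 were members. The sum of that list was 8802 with the NC mimic, 9140 with the miR-429 mimic, 12155 with the NC antagomir and 9214 with antagomir-429. COL1A1 made up most of each sum, with 7162.4, 7404.0, 10500.0 and 7633.1 in the same order of arrays.

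miR-429 is a member of the miR-200 family, which holds epithelial cells in their state mainly by repressing the transcription factors ZEB1 and ZEB2. A microRNA recognises target mRNAs through its seed, the short stretch near its 5′ end, so members with the same seed share many targets, and an antagomir to one may also bind its closest relatives. Blocking the microRNA would be read in a target as a higher mRNA level. The mature sequences show which family members share the seed, drawn in capitals as bases 2 to 8; they are RefSeq sequences with positions on GRCh38.p14.
hsa-miR-429: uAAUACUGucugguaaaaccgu
hsa-miR-200b-3p: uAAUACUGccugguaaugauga
hsa-miR-200c-3p: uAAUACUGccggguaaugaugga
hsa-miR-200a-3p: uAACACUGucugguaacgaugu
hsa-miR-141-3p: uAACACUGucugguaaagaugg
The first 3 of these carry the seed AAUACUG and the remaining ones AACACUG, a change within the seed. miR-429 lies at chr1:1169055-1169076 on the plus strand, close to miR-200b at chr1:1167160-1167181, and miR-200c lies in another cluster at chr12:6963742-6963764. The arrays do not read mature microRNAs, so the level of miR-429 in the cells was not measured here.

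Over all members the antagomir-429 array was not closer to the NC mimic array than the NC antagomir array was. The root mean square of the log2 ratios over the 8130 genes was 0.408 between antagomir-429 and the NC mimic, and 0.362 between the NC antagomir and the NC mimic. The difference of 0.046 kept its sign under each of the 8 alternative settings tried, where it lay between 0.019 and 0.057. The antagomir-429 and NC antagomir arrays, which share the fraction and the kind of reagent, lay nearest to each other of all pairs, at 0.276. The farthest pair was the miR-429 mimic against the NC mimic, both EpCAM-negative, at 0.429. The antagomir-429 array was 0.374 from the miR-429 mimic array, which is less than its distance from the NC mimic array.

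**Figure D1:**
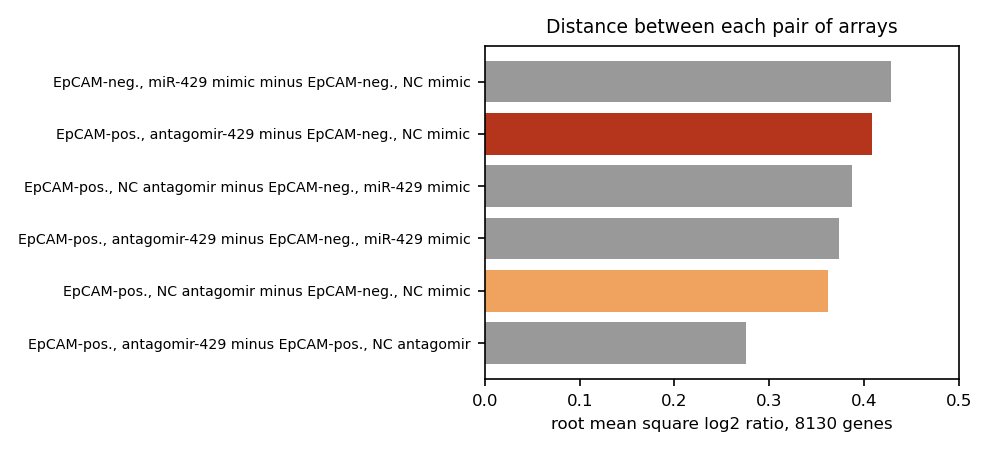
Root mean square log2 ratio over 8130 genes for each of the 6 pairs of arrays, drawn as bars from 0. Antagomir-429 against the NC mimic (red, 0.408) is longer than the NC antagomir against the NC mimic (orange, 0.362), and the shortest bar joins both EpCAM-positive arrays (0.276).

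Genes were counted when the log2 ratio of antagomir-429 over the NC mimic reached 1 in size, a 2-fold difference. There were 135 genes higher with antagomir-429 (1.66% of members) and 79 lower (0.972%), 214 in all (2.63%). The shares of 1.66% and 0.972% are those to set beside the counts past 2-fold in each gene list. Under other scalings there were 112 higher and 94 lower after median centring and 113 and 89 after quantile normalization. At 1.5-fold the counts were 667 higher and 435 lower, and at 3-fold 5 and 9. The NC antagomir array, set against the same NC mimic array, had 120 genes past 2-fold, 60 higher (0.738%) and 60 lower (0.738%). Antagomir-429 over the NC antagomir gave 39 (0.48%), of which 24 were higher and 15 lower. These comparisons share arrays, and for each gene the first log2 ratio is the sum of the other pair, so their values are set side by side and not taken as separate evidence. No member had a signal under the median of all probe sets, 52.9, on either of the arrays compared.

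Dim genes scattered more. The robust SD of the log2 ratio was 0.47 in the dimmest of 4 equal bins of members and 0.24 in the brightest, and the dimmest bin held 69 of the genes past 2-fold higher and 41 of those lower. Among genes past 2-fold with at least 2 probe sets over the filter, the probe sets had the same sign for 35 of 44 higher genes and for all 12 lower ones, and each probe set was past 2-fold for 3 and 6 of them.

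Over all members, both EpCAM-positive arrays lay above both EpCAM-negative arrays for 1579 genes (19.4%) and below both for 1423 (17.5%). The fractions were separated in this way for 60 of the 79 lower genes and for 49 of the 135 higher ones, counts that the choice of genes on 2 of the same arrays had already raised. Among the higher genes the NC mimic array was the lowest of the 4 for 130 of 135, and among the lower genes it was the highest for 56 of 79; over all members it was the lowest for 2381 and the highest for 2464. The choice of genes on a ratio to that array raised the first pair of counts as well. With the miR-429 mimic array as the EpCAM-negative side, 98 of the 135 stayed on the higher side and 4 stayed past 2-fold, with a median log2 ratio of 0.25. Of the 79 lower genes, 76 stayed on the lower side and 36 past 2-fold, with a median of -0.95. These counts and medians use the antagomir-429 array on which the genes were chosen, so that choice had already moved them in its own direction. The median log2 ratio of the NC antagomir over the NC mimic was 0.87 for the higher genes and -0.76 for the lower ones. It uses the NC mimic array of the choice, and was moved by the choice in the same way.

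MALAT1, a nuclear long non-coding RNA, had the lowest log2 ratio of all members. Its signal was 1663.2 with the NC mimic, 1129.7 with the miR-429 mimic, 639.6 with the NC antagomir and 388.1 with antagomir-429, a log2 ratio of -2.10 or 4.29-fold lower. Both EpCAM-positive arrays were below both EpCAM-negative arrays, and the 3 MALAT1 probe sets over the filter gave log2 ratios from -2.10 to -0.99. All 3 have names ending in _x_at or _s_at, the kind open to cross-hybridisation. The MALAT1 probe set without such an ending lay under the filter and went the other way. It had 115.7, 180.3, 123.8 and 236.3 in the same order of arrays (1.03). The other dim MALAT1 probe sets went both ways. IER3, an early response gene induced by NF-kB, followed with 24163.4, 27392.2, 9930.5 and 6525.2 in the same order of arrays, a log2 ratio of -1.89. KRT16, a stress keratin of squamous epithelium, had 427.5, 649.2, 293.5 and 118.7 (-1.85).

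Other genes of the lower 15 have roles in growth, adhesion and cell death. PMAIP1, which encodes the pro-apoptotic protein NOXA, had signals of 1055.3, 715.6, 589.8 and 301.5 (-1.81). LBH, a transcriptional cofactor, had 2868.8, 1814.0, 1461.7 and 856.2 (-1.74). ITGA5, the alpha chain of the fibronectin receptor, had 1874.2, 1534.6, 858.9 and 664.3 (-1.5). For these 3 genes, too, both EpCAM-positive arrays were the lower ones.

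In INSL3, SLC17A9 and HRH1 the NC antagomir array did not share the low value. The hormone gene INSL3 had 454.3, 468.4, 685.7 and 125.6 (-1.85), SLC17A9, a vesicular nucleotide transporter, had 518.9, 256.9, 450.4 and 163.8 (-1.66), and the histamine receptor HRH1 had 301.9, 546.9, 299.3 and 103.4 (-1.55). There the antagomir-429 array was the lowest of the 4 by itself, at log2 ratios to the NC antagomir array of -2.45, -1.46 and -1.53. EFHC2 (-1.67), TMEM158 (-1.49) and CA5B, a mitochondrial carbonic anhydrase (-1.48), completed the lower 15 together with FOS, CLDN4 and HMMR, which are described with their groups.

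TOR1AIP1, an inner nuclear membrane protein that activates torsins, had the highest log2 ratio. Its signal was 235.0 with the NC mimic, 500.5 with the miR-429 mimic, 596.1 with the NC antagomir and 785.9 with antagomir-429, a log2 ratio of 1.74 or 3.34-fold higher. CCN2, a matricellular growth factor, had 589.2, 1137.8, 1072.7 and 1799.1 (1.61). HCFC1, a host cell factor of chromatin complexes, had 212.9, 567.8, 738.0 and 656.9 (1.63). In these genes the NC mimic array was the low one and the remaining 3 arrays lay together or in steps above it.

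The zinc finger genes ZNF416 (1.64) and ZXDB (1.57), the calcineurin regulator RCAN3 (1.58), the myosin kinase MYLK (1.53), the microfibril protein FBN2 (1.52), the kinase HIPK1 (1.5), the scaffold LRRC1 (1.5) and the repressor SPEN (1.49) were also among the highest 15, with EPB41L4A (1.55) and R3HDM1 (1.51). SPEN was typical, with signals of 202.7, 510.3, 493.7 and 568.9. FBN2 had 766.9, 1678.6, 1490.1 and 2200.6. Both show an NC mimic value well under the miR-429 mimic value of the same fraction.

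**Figure D2:**
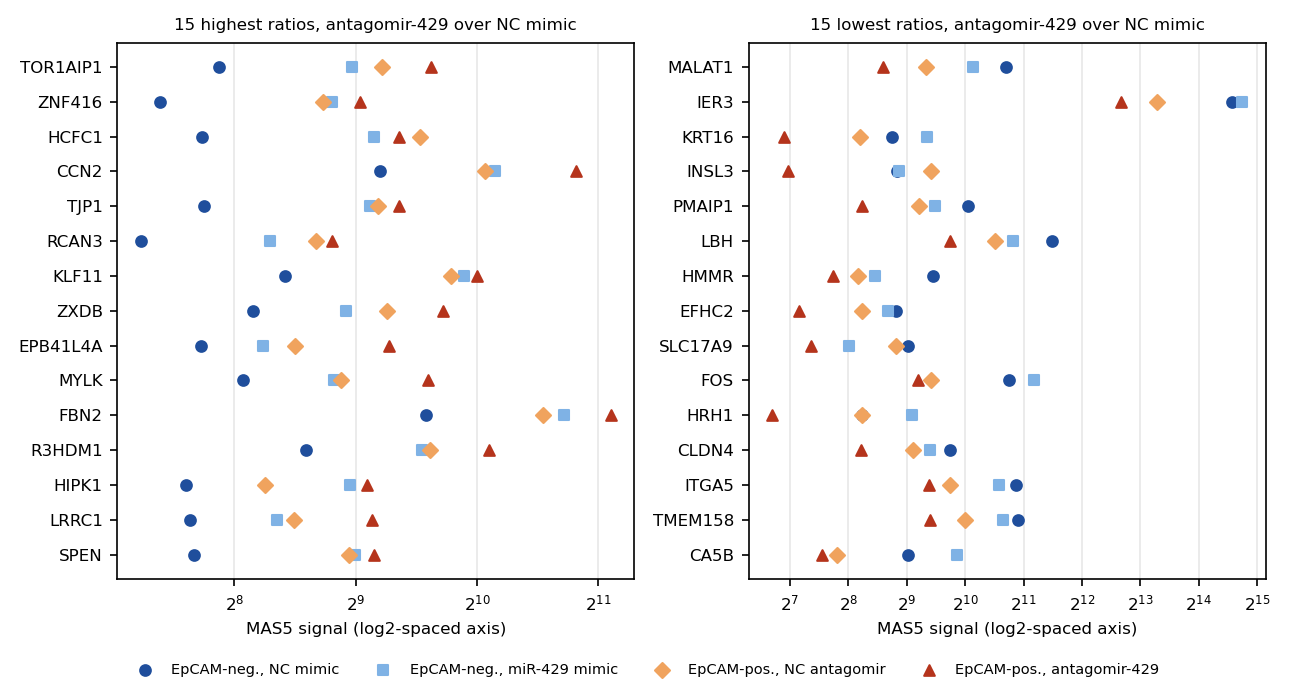
Signal on each of the 4 arrays (horizontal, log2-spaced) for the 15 genes with the highest (left) and the lowest (right) log2 ratio of antagomir-429 over the NC mimic; blue marks are EpCAM-negative and orange and red marks EpCAM-positive arrays. On the left the NC mimic is the lowest mark in every gene, as for TOR1AIP1 at 235.0, while on the right both EpCAM-positive marks lie below both blue ones in most genes, as for IER3; for HRH1 the NC mimic mark is hidden behind the NC antagomir mark.

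NF-kB subunit and feedback genes were lower with antagomir-429 in nearly all measured members. NF-kB dimers sit in the cytoplasm bound to inhibitors, and on release switch on cytokines together with their own inhibitors, so the feedback genes are a common readout of the pathway. Of 14 members among the subunits and feedback genes, 13 had log2 ratios below 0, 3 were past 2-fold lower and 0 higher, and the median was -0.54, against -0.002 over all members. Over all 8130 members, 4081 log2 ratios were below 0. Both EpCAM-positive arrays lay below both EpCAM-negative arrays for 11 of the 14 NF-kB genes, against 17.5% of all members. The median was -0.35 for the NC antagomir over the NC mimic, and -0.99 for antagomir-429 over the miR-429 mimic.

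Besides IER3, the inhibitor gene NFKBIE had signals of 1015.6 with the NC mimic, 841.2 with the miR-429 mimic, 447.6 with the NC antagomir and 448.9 with antagomir-429 (log2 ratio -1.18). The subunit NFKB2 had 742.2, 975.3, 552.5 and 359.0 (-1.05), and its partner RELB 779.0, 996.0, 447.4 and 473.0 (-0.72). The feedback deubiquitinase TNFAIP3 had 1508.0, 3193.5, 1096.4 and 1040.0 (-0.54), the miR-429 mimic array being far above the rest. The subunits RELA and NFKB1 were near level, with log2 ratios of -0.13 and 0.11, and NFKB1 was the 1 member above 0.

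The secreted and adhesion genes that NF-kB induces had 10 members, 7 of them below 0, with none past 2-fold and a median of -0.28. The cytokine LIF had 509.1, 557.9, 366.2 and 272.8 (-0.90), and the leukocyte adhesion receptor ICAM1 831.1, 1268.6, 565.7 and 447.8 (-0.89). The chemokine CXCL2 had -0.86 and the cytokine IL6 -0.51. Complement C3 was the highest of the 3 members above 0, with 1829.5, 4010.8, 1486.6 and 2871.5 (0.65), the miR-429 mimic array being the highest. Against the miR-429 mimic array the median of this list was -0.94, so its size depends on which EpCAM-negative array is used. The consensus kB site was found in 4 of the 11 promoters of the subunit and feedback genes that matched RefSeq (36.4%), against 6.84% of members' promoters and 5.72% of all promoters of the same length. Among genes past 2-fold it stood in 10.2% of the promoters of the lower and 8.77% of those of the higher ones, which describes the sequences and no binding.

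Immediate early genes, whose FOS and JUN products form the AP-1 transcription factor, were lower in most members as well. Of 21, 16 were below 0, 4 were past 2-fold lower and 1 higher, and the median was -0.36. Over all members 0.972% were past 2-fold lower and 1.66% higher. FOS had signals of 1727.2 with the NC mimic, 2324.8 with the miR-429 mimic, 678.5 with the NC antagomir and 587.5 with antagomir-429 (-1.56). FOSL1 had 728.3, 623.7, 324.4 and 280.3 (-1.38), and the MAP kinase phosphatase DUSP5 3818.9, 4882.8, 1959.5 and 1879.8 (-1.02). In FOS, FOSL1 and DUSP5 the 2 arrays of a fraction lay close together and the fractions far apart.

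JUNB had 1500.3, 1023.5, 1161.1 and 637.7 (-1.23), and there the fractions overlapped. JUN had -0.79 and ATF3, a stress-induced partner, -0.55. MYC was nearer to level (-0.21), with signals from 7662.2 to 11010.2. The high member was CCN2, described with the highest genes, followed by its relative CCN1 (0.71). The letters TGACTCA, the AP-1 site, stood on either strand in 6 of 59 promoters of genes past 2-fold lower (10.2%) and in 0 of 114 of those higher, and in 1 of the 15 promoters of the immediate early list (6.67%), beside 2.67% of members' promoters and 4.92% of all promoters.

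**Figure D3:**
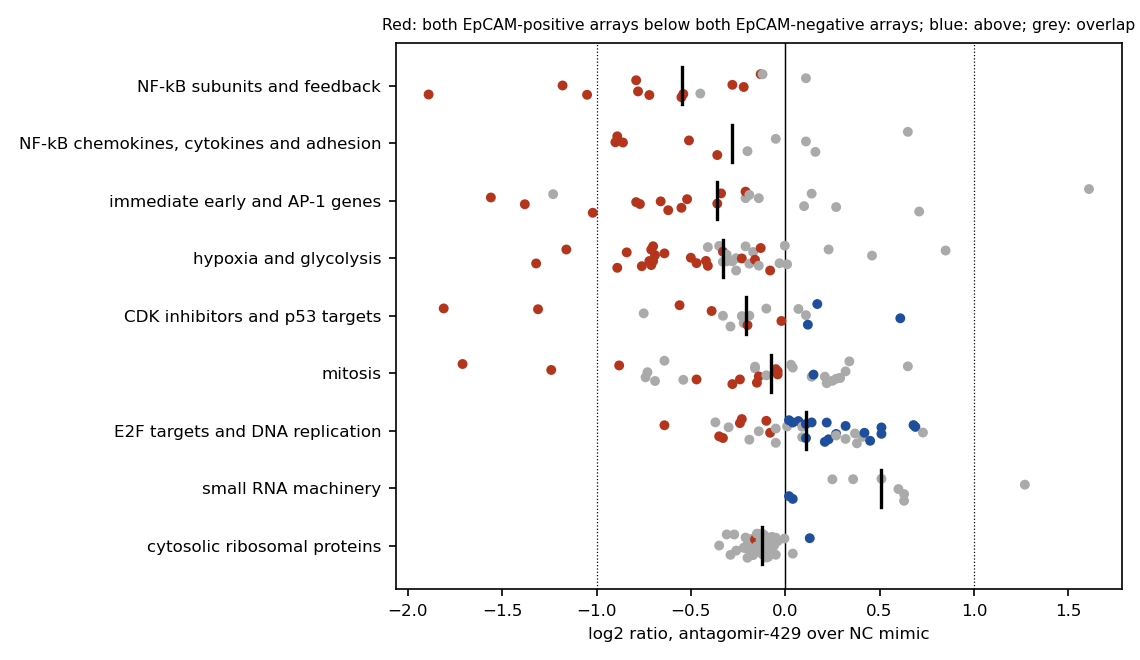
Log2 ratio of antagomir-429 over the NC mimic for each member (points, spread vertically for clarity) of 9 gene lists, with the list median as a black bar and dotted lines at 2-fold. The NF-kB feedback genes lie mainly left of 0 around a median of -0.54 and the hypoxia genes around -0.33, most of their points being red (both EpCAM-positive arrays below both EpCAM-negative ones), while the small RNA machinery lies right of 0 (0.51) with mostly grey, overlapping points.

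Genes of hypoxia and glycolysis were lower as a broad set with small sizes. Under low oxygen, HIF factors bind the core letters ACGTG and induce glycolytic enzymes, angiogenic factors and the prolyl hydroxylases that limit HIF itself. Of 39 members, 35 were below 0, 2 were past 2-fold lower and 0 higher, with a median of -0.33. For 21 of the 39 both EpCAM-positive arrays were below both EpCAM-negative arrays, against 17.5% of all members. The median was -0.32 for the NC antagomir over the NC mimic, -0.03 for antagomir-429 over the NC antagomir and -0.31 against the miR-429 mimic array, so the value was near the same with either EpCAM-negative array and for either antagomir.

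ENO2, the neuronal enolase, had signals of 8388.3 with the NC mimic, 6607.7 with the miR-429 mimic, 4163.9 with the NC antagomir and 3360.5 with antagomir-429 (log2 ratio -1.32). ANGPTL4, an inhibitor of lipoprotein lipase, had 690.3, 540.5, 285.1 and 309.1 (-1.16). In both genes the fractions were apart and the arrays within a fraction closer together. The glycolytic regulator PFKFB4 had 7235.7, 6067.2, 4098.4 and 3902.9 (-0.89), the aldolase ALDOC 18429.4, 12008.4, 11523.3 and 10288.4 (-0.84), and the collagen hydroxylase P4HA1 3484.3, 3549.7, 1665.2 and 2063.6 (-0.76). The angiogenic factor VEGFA had -0.50. Abundant enzymes differed less: LDHA had -0.19 and GAPDH -0.14. EPAS1, which encodes HIF-2 alpha, was the highest member at 0.85, with 1655.5, 3650.9, 2086.0 and 2982.1. MIR210HG, the host transcript of the hypoxia-induced miR-210, is outside that list and had 2661.1, 1791.5, 1488.7 and 1301.8 (-1.03). Its other probe set over the filter gave -0.68, and the ratio to the miR-429 mimic array was -0.46. MIR210HG was under 2-fold with the mean over probe sets and with the span trend removed.

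The core ACGTG, read on both strands, stood in 16 of the 35 promoters of this list that matched RefSeq (45.7%), against 28.1% of 6753 members' promoters and 21.6% of all 27305. Among genes past 2-fold lower it stood in 28.8%, and among those higher in 23.7%. The 250 bases before the annotated start of the 3 hypoxia-linked genes past 2-fold are shown because each holds the core once, in capitals (as CACGT where it lies on the other strand); positions are on GRCh38.p14.
ENO2, chr12:6914330-6914579, plus strand: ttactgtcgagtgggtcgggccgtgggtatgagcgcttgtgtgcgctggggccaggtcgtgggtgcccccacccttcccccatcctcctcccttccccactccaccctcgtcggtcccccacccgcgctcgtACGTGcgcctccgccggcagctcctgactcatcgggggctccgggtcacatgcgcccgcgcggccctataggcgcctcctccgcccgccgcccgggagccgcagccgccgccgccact
ANGPTL4, chr19:8363905-8364154, plus strand: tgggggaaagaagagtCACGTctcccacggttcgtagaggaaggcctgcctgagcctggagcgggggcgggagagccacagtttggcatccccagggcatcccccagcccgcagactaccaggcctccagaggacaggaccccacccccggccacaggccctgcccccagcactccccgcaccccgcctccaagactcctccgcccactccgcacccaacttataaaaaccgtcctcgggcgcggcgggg
MIR210HG, chr11:568458-568707, minus strand: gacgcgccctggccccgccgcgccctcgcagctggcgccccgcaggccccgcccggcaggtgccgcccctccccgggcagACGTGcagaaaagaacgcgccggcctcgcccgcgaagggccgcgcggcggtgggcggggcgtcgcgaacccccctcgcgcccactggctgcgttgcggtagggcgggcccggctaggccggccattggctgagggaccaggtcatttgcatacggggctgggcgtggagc
A match of 5 letters is a description of the sequence, and occupancy was not measured.

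Among CDK inhibitors and p53 targets, which halt the cell cycle or promote death after damage, 13 of 18 members were below 0 and 2 past 2-fold lower, with a median of -0.21. CDKN1A, which encodes the inhibitor p21, had 6916.8 with the NC mimic, 4204.7 with the miR-429 mimic, 4072.1 with the NC antagomir and 2782.5 with antagomir-429 (-1.31), the middle values being nearly equal. MDM2, the p53 ubiquitin ligase, had 483.2, 278.1, 246.3 and 286.4 (-0.75), where the NC mimic array was the one set apart. TIGAR, a p53 target of metabolism, went the other way with 0.61. Against the miR-429 mimic array the median was 0.02, so as a list this direction held with the NC mimic array and not with the other. In the BCL2 family and apoptosome 11 of 17 members were below 0 (median -0.17), with PMAIP1 the 1 past 2-fold.

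Of 39 genes of E2F targets and DNA replication, 26 were above 0 and the median was 0.11. By the brightest probe sets 0 were past 2-fold in either direction. For 17 of them both EpCAM-positive arrays were above both EpCAM-negative ones, and for 7 below both. Over all members these shares were 19.4% and 17.5%. RFC4, a subunit of the clamp loader, had 5330.9, 8047.3, 8461.7 and 8543.0 (0.68), and CDC25A, a phosphatase of the S phase entry, 536.6, 744.5, 647.0 and 889.0 (0.73). Other probe sets over the filter were past 2-fold for CDC25A (1.44) and for GINS3 (1.03, and 0.69 by its brightest). RRM1, the large subunit of ribonucleotide reductase, was the lowest at -0.64, with 6033.4, 6697.8, 3525.6 and 3861.5.

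Of 32 mitosis genes, 19 were below 0 and 2 past 2-fold lower, with a median of -0.07 (-0.22 for the NC antagomir over the NC mimic, 0.15 for antagomir-429 over the NC antagomir). HMMR, a spindle-associated hyaluronan receptor, had 697.5, 349.7, 287.0 and 213.4 (-1.71), and the kinetochore subunit NUF2 a log2 ratio of -1.24. CDK1, the mitotic kinase, had 5261.6, 2862.7, 2745.0 and 3168.8 (-0.73), and the spindle factor TPX2 2436.9, 3829.8, 2900.0 and 3821.7 (0.65). For HMMR and CDK1 the NC mimic array stood above all 3 others.

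Epithelial adhesion and polarity genes were below 0 in most members, but those past 2-fold went both ways. Of 17, 12 were below 0, with 1 past 2-fold lower and 2 higher, and a median of -0.28 (-0.13 against the miR-429 mimic array). Both EpCAM-positive arrays were below both EpCAM-negative arrays for 8 and above them for 2. Over all members these shares were 17.5% and 19.4%. The tight junction gene CLDN4 had 858.3, 670.5, 548.9 and 298.0 (-1.53), and the epithelial transcription factor ELF3 5871.9, 5562.1, 4200.7 and 2976.0 (-0.98). Against them TJP1, the tight junction scaffold ZO-1, had 215.0, 554.4, 581.2 and 656.1 (1.61), and the desmosomal DSP 1661.7, 4230.3, 3064.8 and 3859.4 (1.22). The lower values of CLDN4 and ELF3 held over both EpCAM-negative arrays. DSP reversed against the miR-429 mimic array (-0.13), and TJP1 was 0.24 there.

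Mesenchymal genes and regulators of the epithelial-mesenchymal transition had 11 of 22 members on each side of 0 and a median of -0.01 (0.01 after quantile normalization). NT5E, an ectonucleotidase of mesenchymal cells, had 1137.1, 1364.4, 575.8 and 550.1 (-1.05). The microfibril gene FBN1 had 364.8, 1046.7, 916.7 and 838.0 (1.20), and was lower than the miR-429 mimic array by its log2 ratio of -0.32. Vimentin, VIM, the main mesenchymal filament, differed little (0.12), and N-cadherin, CDH2, had 0.81. ZEB1 and ZEB2 lay under the filter, so the textbook targets of the family gave no usable ratio. Of their probe sets, the brightest of ZEB1 had signals from 65.2 to 122.8.

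Among pluripotency genes and markers of tumour-initiating cells of the liver there were 10 members, of which 6 were below 0 and 1 was past 2-fold higher, with a median of -0.11 (0.23 when probe sets open to cross-hybridisation, whose names end in _x_at or _s_at, were left out). CD24, a surface glycoprotein used to enrich such cells, had 3231.6, 5289.3, 5745.1 and 8438.7 (1.38), the highest value being that of antagomir-429, and its 6 probe sets over the filter gave 0.42 to 1.5. CD44, the hyaluronan receptor, had 6167.5, 8236.5, 5969.2 and 4195.2 (-0.56), the lowest value being that of antagomir-429. SOX9, a progenitor transcription factor, had -0.07. POU5F1 has no probe set with a single gene symbol here and is not analysed.

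Published targets of the seed shared by miR-429, miR-200b and miR-200c had 29 members of 48 listed. Of these, 22 were above 0, 1 was past 2-fold higher and 0 lower, and the median was 0.20. The same list had a median of 0.15 for the NC antagomir over the NC mimic and 0.01 for antagomir-429 over the NC antagomir, the comparison in which only the blocked microRNA differs by label. Against the miR-429 mimic array the median was 0.09. KLF11, a zinc finger regulator, had 342.2, 948.0, 883.1 and 1026.5 (1.58), and the Notch ligand JAG1 552.4, 914.7, 806.1 and 899.6 (0.70). The actin regulator CFL2 had 2427.2, 2478.7, 3673.9 and 3508.1 (0.53), in which the fractions did not overlap. In KLF11 and JAG1 the NC mimic array was the low one, and the array given miR-429 itself lay near the EpCAM-positive arrays.

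RBBP4, a histone chaperone found in deacetylase, remodelling and assembly complexes, had 4844.9, 6884.4, 6598.5 and 7029.3 by its brightest probe set (0.54), and its probe sets over the filter gave -0.25 to 0.54. Over the 26 members of the complexes that hold RBBP4 the median was 0.05 (-0.03 after the gene span trend was taken off), with 1 past 2-fold, the pocket protein RBL2 at 1.07. Its close relative RBBP7 had -0.13. E2F1, a cell cycle activator, had 693.0, 557.6, 507.6 and 564.6 (-0.30), and its other probe set gave -1.55. That probe set had 530.5, 507.7, 517.7 and 181.8, so only the antagomir-429 array was low.

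The small RNA machinery, which processes microRNAs and loads them on Argonaute proteins, had a median of 0.51 over 9 members, all 9 above 0, and of 0.25 without probe sets open to cross-hybridisation. DROSHA, the nuclease that starts microRNA processing, had 1547.5, 3816.6, 2522.5 and 3733.6 (1.27). The exporter XPO5 had 901.5, 1362.2, 975.6 and 1394.5 (0.63), AGO1 395.1, 609.4, 668.5 and 597.2 (0.60) and AGO2 0.25. Against the miR-429 mimic array the median was 0.05 and DROSHA had -0.03. In DROSHA, XPO5, AGO1 and AGO2 the NC mimic array was the lowest of the 4.

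Chromatin regulators of the SWI/SNF group and others had a median of 0.30 over 25 members, 3 of them past 2-fold higher and 0 lower. The demethylating enzyme TET3 had 182.9, 541.0, 495.6 and 485.5 (1.41), the SWI/SNF subunit ARID1A 475.7, 1045.7, 1094.2 and 1080.7 (1.18) and the acetyltransferase CREBBP 642.8, 1195.9, 1236.7 and 1409.5 (1.13). Another ARID1A probe set over the filter gave -0.17. Against the miR-429 mimic array the list median was 0.05.

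The TGF-beta receptor TGFBR1 had 1559.6, 1739.8, 685.4 and 641.5 (-1.28), with the fractions far apart, while its pathway had 11 of 20 members above 0 and a median of 0.03 that changed sign under 3 of the 8 settings. The receptor NOTCH2 had 1075.7, 2677.1, 2100.3 and 2529.1 (1.23; -0.08 against the miR-429 mimic array). In the Wnt pathway 14 of 17 members were above 0 with a median of 0.24 (0.06 against the miR-429 mimic array), and SP5, a target gene of beta-catenin, had 180.3, 272.8, 428.6 and 440.1 (1.29). The adaptor DVL1 was the lowest of the 3 Wnt members below 0, with 2654.8, 3201.9, 3015.8 and 1512.9 (-0.81), low on the antagomir-429 array only.

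Of 7 members among hepatocyte factors and enzymes, both EpCAM-positive arrays were below both EpCAM-negative arrays for 3 and above them for 1. Over all members these shares were 17.5% and 19.4%. The list median was -0.17, and 0.57 without probe sets open to cross-hybridisation. PCK1, the key enzyme of gluconeogenesis, had 1324.6, 1806.2, 688.0 and 477.1 (-1.47). The xenobiotic oxidases CYP1A1 and CYP1B1 had log2 ratios of -1.23 and -0.98. CPS1, the first enzyme of the urea cycle, had 5241.6, 7465.8, 7450.6 and 9496.5 (0.86), with the fractions overlapping. Most hepatocyte genes lay under the filter: 7 of 35 listed factors and enzymes and 3 of 30 secreted proteins were members. In sterol synthesis and uptake 13 of 19 were below 0 (median -0.19, and -0.01 against the miR-429 mimic array), with HMGCS1, which makes the precursor HMG-CoA, at 790.2, 1032.7, 600.0 and 356.6 (-1.15) and INSIG2, which retains the sterol sensor, at 792.0, 742.9, 566.2 and 373.6 (-1.08).

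Growth and housekeeping groups lay close to 0. The 54 cytosolic ribosomal protein genes had a median of -0.13 (0.01 after quantile normalization, 0.22 against the miR-429 mimic array), the 70 respiratory chain subunits -0.12 (0.24 against the miR-429 mimic array) and the 30 proteasome subunits -0.13 (0.08 against it), with 0 genes past 2-fold in each. PSMA3, a proteasome core subunit, was just inside that limit with 5518.0, 2964.5, 3341.1 and 2759.4 (-1.0). In these groups the direction followed the choice of the EpCAM-negative array. MTOR, the nutrient-sensing kinase, had 136.2, 538.0, 261.6 and 343.5 (1.33; -0.65 against the miR-429 mimic array), and ASNS, the asparagine synthetase of the amino acid response, 972.5, 1722.0, 1102.0 and 1948.3 (1.0), high on one array of each fraction.

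**Figure D4:**
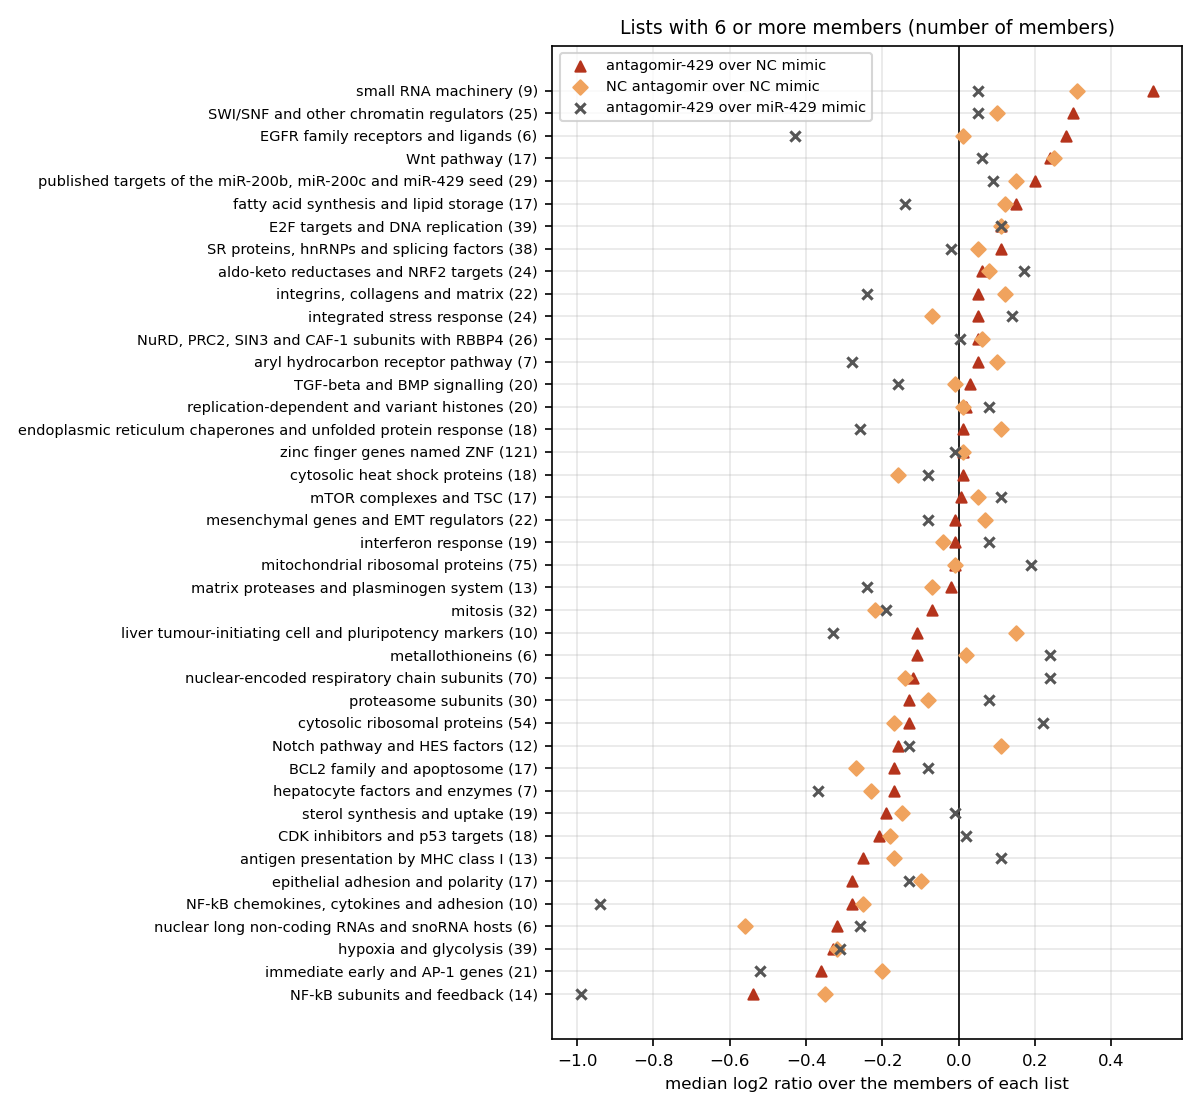
Median log2 ratio of each gene list with at least 6 members for antagomir-429 over the NC mimic (red triangles), the NC antagomir over the NC mimic (orange diamonds) and antagomir-429 over the miR-429 mimic (crosses). The NF-kB and immediate early lists are below 0 by all 3 marks and hypoxia sits near -0.3 by each, while the small RNA machinery moves from 0.51 to 0.05 when the miR-429 mimic array is the EpCAM-negative side.

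The log2 ratio also moved with the length of the gene. In 5 equal bins of the genomic span of the gene, whose median spans ran from 4.4 to 123.7 kb, the median log2 ratio was -0.12, -0.05, -0.01, 0.07 and 0.17. Of the genes past 2-fold higher, 76 of 135 were in the longest bin and 7 in the shortest, whereas 9 of the 79 lower genes were in the longest and 25 in the shortest. The median span was 86.1 kb for the higher genes, 20.2 kb for the lower ones and 25.2 kb for all members. The NC antagomir over the NC mimic ran from -0.10 to 0.12 over the same bins, and antagomir-429 over the NC antagomir from -0.02 to 0.04. Against the miR-429 mimic array the order was turned, from 0.13 to -0.08.

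Control probe sets that move with RNA quality and labelling were read beside this. The ratio of the 3′ to the 5′ actin control probe set was 3.41 with the NC mimic, 2.63 with the miR-429 mimic, 3.12 with the NC antagomir and 3.07 with antagomir-429. The GAPDH ratio was 0.92, 0.92, 0.92 and 0.90. The mean log2 signal of the poly-A spike controls, relative to the NC mimic array, was -0.82 with the miR-429 mimic, -0.43 with the NC antagomir and -0.35 with antagomir-429. The hybridisation controls, which are added after labelling, had -0.37, -0.18 and -0.14 in the same order. The NC mimic array was thus the highest for the actin ratio and for both kinds of added control, and the part of any of them in the higher genes was not tested.

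**Figure D5:**
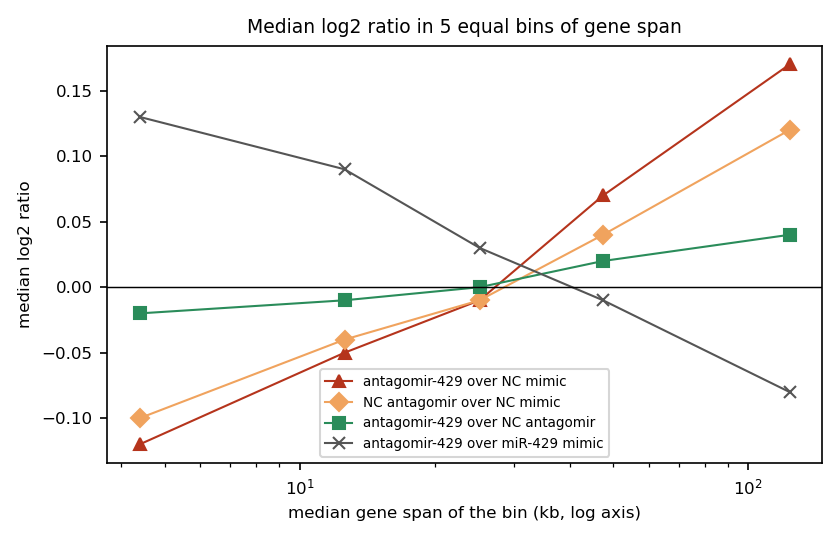
Median log2 ratio (vertical) in 5 equal bins of gene span (horizontal, median kb of the bin on a log axis) for 4 comparisons of arrays. Antagomir-429 over the NC mimic climbs from -0.12 to 0.17, the NC antagomir over the same array from -0.10 to 0.12, and antagomir-429 over the miR-429 mimic descends from 0.13 to -0.08.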

How the data were processed

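The authors deposited log2 signals of the MAS5 algorithm, which the submitters' processing notes name without a version; no target level or detection call is given in the sources used here. With the log2 undone, the trimmed mean was 500.1 on each of the 4 arrays, so no further scaling was applied, and with 1 array per group their number limits the precision.

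Of 54675 probe sets, 62 controls were left out. GEO's platform annotation, possibly an old one, gave a single symbol for 41097 probe sets and several for 1801; Entrez identifiers of 41043 matched the RefSeq table of GRCh38.p14, used for gene spans. The files name no build, so positions given are those of RefSeq sequences. Each gene was read by its brightest probe set. Log2 ratios between arrays were computed in Python 3.11.15 with pandas 2.3.3 and no offset. No p-value, standard error or set test was computed. The steps were run on simulated data with noise far smaller than the scatter of these arrays. That run checks the code and not how reliable the counts are.

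The members, gene lists and comparisons were chosen with earlier results of these data known. The genes named are EPCAM, RBBP4, E2F1, POU5F1, ZEB1 and ZEB2, the 15 most extreme in each direction, and members drawn from the lists. From a list these could be its members past 2-fold, at most 6, or, where none was, its 2 largest. Not every list and not every such member is described here. Up to 3 genes a direction with the dimmer array under 52.9 were allowed, and there were 0. Others were chosen after their values were seen. Alternatives were 2 other scalings, an offset of 13.2, the mean over probe sets, leaving out probe sets open to cross-hybridisation, 2 other filters and removal of the span trend.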

Additional observations from a re-analysis of the deposited data

How the results depend on the processing

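The counts depended mainly on the filter for dim genes. With the filter at the median of all probe sets there were 13180 genes. Of these, 1242 were past 2-fold for antagomir-429 over the NC mimic (593 higher, 649 lower). For the NC antagomir over the NC mimic there were 1096, and for antagomir-429 over the NC antagomir 955. With no filter, over 19775 genes, these were 4877 (2267 higher, 2610 lower), 4803 and 4638, and the difference of root mean square distances was 0.019. Under the other 6 settings the total for antagomir-429 over the NC mimic lay between 167 and 206. The 167 came from 5425 genes, without probe sets open to cross-hybridisation, and the other totals from 8130. With the miR-429 mimic array as the EpCAM-negative side, an alternative chosen after seeing the data, 138 genes were past 2-fold, 37 higher and 101 lower, and the log2 ratio reversed for COL12A1 (-0.75), DROSHA (-0.03), DSP (-0.13), FBN1 (-0.32), MTOR (-0.65), NOTCH2 (-0.08), NUP153 (-0.23), NUP205 (-0.02), TET3 (-0.16) and ZNF358 (0.44). Of 68 named genes past 2-fold, 57 stayed past it under each of the 8 other settings that could read them and 11 did not in at least 1 of them. Of 44 list medians, 23 kept their sign in all 8 and 21 did not. The cause was not tested. Removing the span trend left 100 higher and 88 lower. No replicate could be left out and no paired analysis was possible because each group holds 1 array.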

Other observations

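Gene groups chosen after their values were seen add to the description. Of 19 members of the Hippo pathway and its TEAD target genes, 16 were above 0 and 3 past 2-fold higher. The median log2 ratio was 0.33 for antagomir-429 over the NC mimic and 0.13 over the miR-429 mimic. Besides CCN2 those past 2-fold were the transcription factor TEAD1 (1.27) and the kinase LATS2 (1.14). Over all members 1.66% were past 2-fold higher. The median gene span was 88.6 kb in this list and 25.2 kb over all members. Of 23 nucleoporins, which build the nuclear pore, 20 were above 0 (median 0.24), with NUP205 (1.42) and NUP153 (1.33) past 2-fold, and the median was -0.02 against the miR-429 mimic array. In the insulin-like growth factor system 5 of 9 members were above 0 and 4 below (median 0.21, and -0.29 against the miR-429 mimic array). IGFBP1, a binding protein, had signals of 41079.2 with the NC mimic, 40983.6 with the miR-429 mimic, 18579.6 with the NC antagomir and 15096.8 with antagomir-429 (-1.44), and the binding proteins IGFBP4, IGFBP3 and IGFBP6 had -1.13, -0.99 and -0.61. The fractions overlapped for IGFBP4, which had -0.25 against the miR-429 mimic array. The receptors INSR, IGF1R and IGF2R had 0.58, 0.61 and 0.82, and -0.32, 0.06 and -0.18 against the miR-429 mimic array. The adaptor IRS2 had 0.25 and the protease HTRA1 0.21.

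Further lists were mixed. Of 19 interferon response genes 11 were below 0 (median -0.01, and 0.12 with the span trend taken off), with the ubiquitin-like modifier ISG15 the lowest at -0.84. Among antigen presentation genes of MHC class I, 10 of 13 were below 0 (median -0.25; 0.22 without probe sets open to cross-hybridisation). Integrin, collagen and matrix genes had a median of 0.05 that changed sign under 3 settings, with COL12A1 at 1.25 and ITGA5 at -1.5.

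A further 1535 probe sets passed the filter without a single gene symbol. Of these, 14 were past 2-fold higher and 17 lower, 2.02% in all.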
